A study of Mus musculus with 8 samples.

Results

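Skeletal muscle takes fatty acids from circulating lipoproteins and from its own triglyceride droplets, activates them to acyl-CoA, carries them into mitochondria as acylcarnitines and shortens them there by beta-oxidation. Lipid droplets are coated by perilipins, which govern the access of lipases to the stored triglyceride. Many of the genes involved respond to fatty acids through nuclear receptors of the PPAR family and change with feeding, fasting and fibre type. The genes described here are 39 genes of this route, chosen by name as members of 6 roles. These are uptake and activation, the carnitine shuttle and its control, beta-oxidation, electron transfer, thioesterases and uncoupling proteins, and lipid droplets with lipolysis. All 39 were found among the 12551 genes of the count data, and all 39 entered the test.

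RNA was taken from the whole tibialis anterior (TA), a fast muscle of the lower leg, of 4 wild-type (WT) and 4 homozygous Klotho null (KL-/-) male littermates at 7 weeks of age. The parents were Klotho heterozygotes on a mixed genetic background, and the mice ate chow. Klotho is a membrane protein with a circulating form, and the null allele was present in every tissue from conception, so effects on muscle and on other organs cannot be told apart. *Kl* itself is not among the counted genes, so genotype was taken from the labels alone.

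Counts on genes summed to between 20860262 and 29273758 per library, and values are given as CPM, the counts scaled to a common library size with TMM factors, which allow for abundant transcripts that take more of one library. At these depths 3 counts corresponded to 0.105 to 0.143 CPM. The transcripts were those of fast muscle, with *Ckm*, the muscle creatine kinase, between 16755 and 26256 CPM. KL-/- replicate 2 stood apart from the other KL-/- mice in fibre transcripts, and results that rest on it are given with and without it. Its *Myh2* (type IIa myosin) was at 292 CPM, against 3445 to 5441 CPM in the other KL-/- mice and 1169 to 4436 CPM in WT. KL-/- replicate 3 alone carries another batch label, so that batch and that mouse cannot be told apart, and its values are also given by leaving it out.

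Of the 39 genes, 6 rose in KL-/- muscle and 0 fell at a false discovery rate (FDR) under 0.05, by edgeR's quasi-likelihood test adjusted over 12551 genes. These were *Acot1*, *Plin4*, *Pnpla2*, *Slc27a1*, *Eci2* and *Etfb*. The share called, 15.4%, was near the 14.0% of all genes that passed. In the upward direction alone the share was again 15.4%, against 7.35% of all genes, and 6.67% of all genes were lower. At an unadjusted p under 0.05, 11 members were higher and 1, *Acads*, was lower, 30.8% of the members. Over all genes 32.1% were under that level, 1978 higher and 2053 lower. The likelihood ratio test, DESeq2 and limma-voom also called 0 members lower. Scaling by library totals called 4 members higher and 1, *Acads*, lower, and over all genes it called 492 higher and 2127 lower, against 922 and 837 with TMM factors. Log2 fold changes ran from −0.67 to 1.46 with a median of 0.10, and 25 were positive and 14 negative. Over all genes the median was −0.016. Scaled by library totals alone, both medians moved down together, to −0.017 for the members and −0.13 for all genes, and 19 members were then positive and 20 negative.

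**Figure D1:**
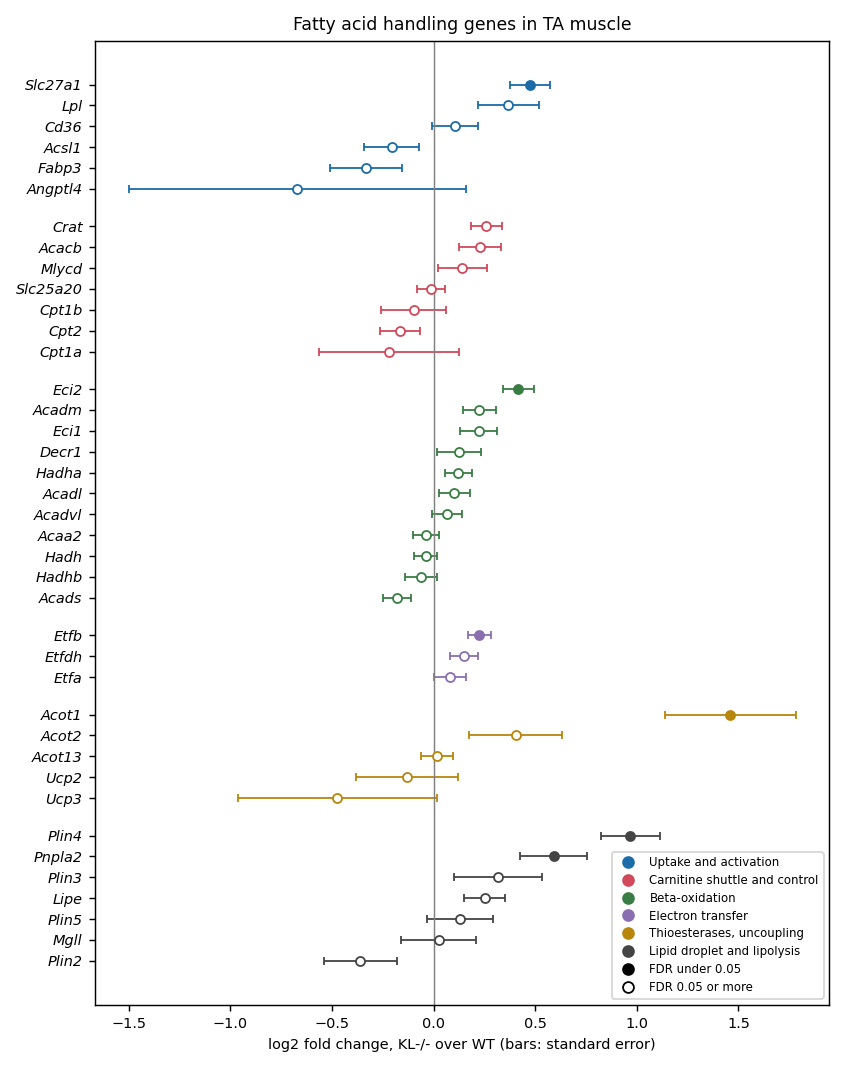
Log2 fold change of each of the 39 genes, KL-/- over WT, on the x axis, grouped by role on the y axis. Bars are standard errors with 4 mice per genotype and filled points have an FDR under 0.05; the 6 filled points all lie to the right of 0.

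Groups without overlap were found in 6 members, 5 with all KL-/- mice above all WT mice and 1, *Acads*, with all below, which is 15.4% of the members. Over all genes 19.7% did not overlap, 10.2% with KL-/- mice above and 9.47% with them below. *Pnpla2* passed the test although its groups overlapped. In whole muscle, fewer cells of a type and less RNA per cell cannot be told apart.

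**Figure D2:**
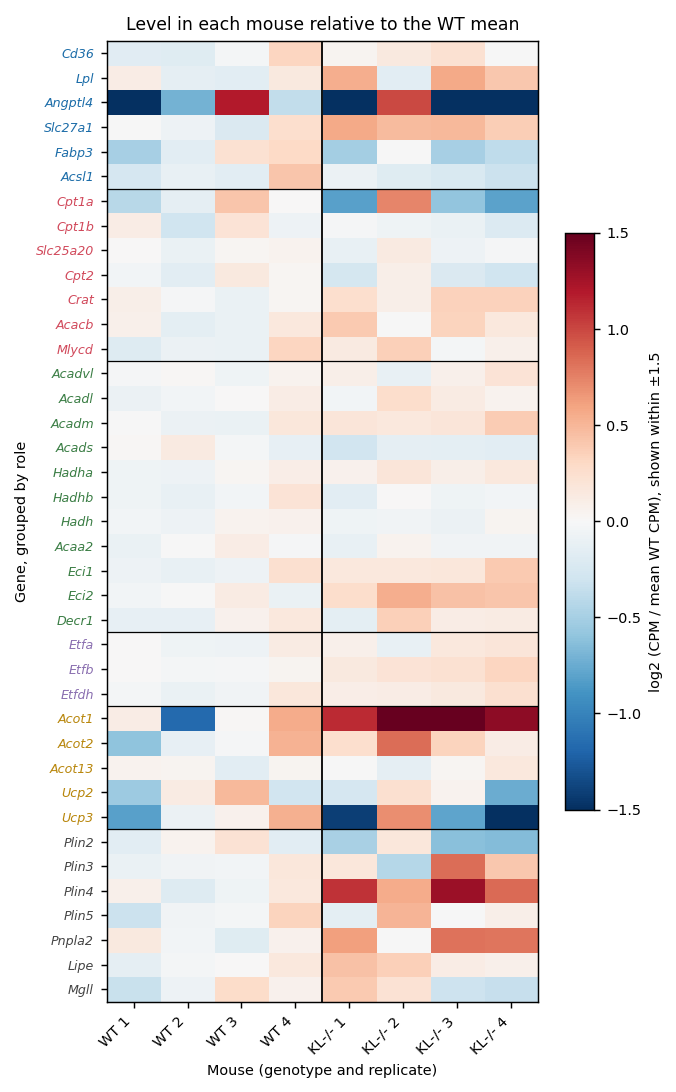
Level of each gene (rows, ordered by role) in each mouse (columns) as log2 of its CPM over the WT mean, with colours limited to ±1.5. *Plin4* and *Slc27a1* are red in all 4 KL-/- mice, while *Ucp3*, *Cpt1a* and *Angptl4* are blue in 3 of them and red in KL-/- replicate 2.

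Fatty acid uptake and activation held 1 higher gene among 6, against 7.35% higher over all genes. *Slc27a1* (chr8:71568927-71586708 of mm10, plus strand), which encodes the fatty acid transport protein FATP1, was at 109, 103, 93.3 and 129.8 CPM in WT replicates 1 to 4. In KL-/- replicates 1 to 4 it was at 161, 150.4, 153 and 140.4 CPM. All KL-/- mice were above all WT mice, with the narrowest gap between KL-/- replicate 4 and WT replicate 4. The means were 109 ± 15.4 and 151 ± 8.32 CPM (SD, n = 4), and the log2 fold change was 0.47 ± 0.096 (standard error; FDR = 0.0148, edgeR's quasi-likelihood test). It passed in all 8 fits that left out 1 mouse.

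*Lpl* (chr8:68880555-68906932), the lipase that frees fatty acids from circulating triglyceride at the capillary wall, was at 628, 529, 520.3 and 644 CPM in WT replicates 1 to 4. Its level in KL-/- replicates 1 to 4 was 845, 522, 859.9 and 769.9 CPM. Among these, KL-/- replicate 2 lay within the WT range and the other 3 lay above it. The log2 fold change was 0.37 (standard error 0.15, FDR = 0.129), and without KL-/- replicate 2 it was 0.52 (FDR = 0.00674, edgeR's quasi-likelihood test). *Angptl4*, a secreted inhibitor of lipoprotein lipase, was counted 43, 71, 322 and 116 times in WT and 19, 224, 32 and 43 times in KL-/- replicates 1 to 4. These counts correspond to 1.76, 3.28, 12.3 and 4.16 CPM in WT and 0.663, 10.7, 1.33 and 1.62 CPM in KL-/- muscle. Here too 1 mouse, KL-/- replicate 2, stood alone, and the other 3 lay below every WT mouse. The log2 fold change of −0.67 (standard error 0.83) came with an FDR of 0.610, and without KL-/- replicate 2 it was −2.18 (FDR = 0.0581), still short of the threshold.

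The other 3 uptake genes overlapped between genotypes. *Cd36*, the main fatty acid translocase of the fibre membrane, stood at a log2 fold change of 0.10 (standard error 0.11), and its FDR was 0.558. *Acsl1*, which joins long-chain fatty acids to CoA, had −0.21 (standard error 0.14, FDR = 0.319). *Fabp3*, the muscle fatty acid binding protein, had −0.33 (standard error 0.18, FDR = 0.228), and ranged from 339 to 589 CPM in WT and from 337 to 478 CPM in KL-/- muscle.

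The carnitine shuttle and its control held 0 called genes among 7 by edgeR's quasi-likelihood test, against 14.0% called over all genes. Only 1 of them, *Crat*, had an unadjusted p under 0.05, and DESeq2 called it alone. *Crat*, the carnitine acetyltransferase that buffers acetyl-CoA, was at 636, 595, 560.2 and 610.4 CPM in WT replicates 1 to 4. In KL-/- replicates 1 to 4 it stood at 717, 635, 761 and 761 CPM. Only KL-/- replicate 2 reached into the WT range, by less than 1 CPM. With all mice the log2 fold change was 0.26 (standard error 0.077, FDR = 0.0514), and without that mouse it was 0.32 (FDR = 0.00848, edgeR's quasi-likelihood test).

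*Cpt1a* (chr19:3323301-3385733), the carnitine palmitoyltransferase of the outer mitochondrial membrane that predominates in liver, was at 12.3, 14.9, 21.9 and 16.5 CPM in WT replicates 1 to 4. Its KL-/- values were 9.31, 27.3, 10.9 and 9.39 CPM. The highest of all 8 mice was KL-/- replicate 2, and the other 3 KL-/- mice were the lowest. The log2 fold change was −0.22 (standard error 0.35, FDR = 0.694) with all mice and −0.73 (FDR = 0.0258, edgeR's quasi-likelihood test) without KL-/- replicate 2. *Cpt2*, which returns acylcarnitines to acyl-CoA inside the mitochondrion, had a log2 fold change of −0.17 (FDR = 0.266), and −0.25 (FDR = 0.0452) without the same mouse. *Acacb*, whose product malonyl-CoA inhibits the shuttle, had 0.23 (FDR = 0.163), and 0.30 (FDR = 0.0424) without it.

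*Mlycd*, which breaks down malonyl-CoA, had a log2 fold change of 0.14 (FDR = 0.451), and *Slc25a20*, the carnitine-acylcarnitine carrier of the inner membrane, −0.013 (standard error 0.068, FDR = 0.911). *Cpt1b*, the muscle form of the outer membrane enzyme, was at 1.67 to 2.36 CPM in WT and 1.77 to 2.02 CPM in KL-/- muscle. These low counts are uncertain, since 94.8% of its 2894 exon bases also belong to *Gm44502*, an annotated gene on the same strand, and reads on shared bases could have gone uncounted or been assigned elsewhere. How they were counted is not given in the sources used here. Its log2 fold change was −0.099 (FDR = 0.699, edgeR's quasi-likelihood test).

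Beta-oxidation held 1 higher gene among 11 (9.09%), near the 7.35% higher over all genes. *Eci2* (chr13:34977748-34994144, minus strand), an enoyl-CoA isomerase that moves double bonds of unsaturated fatty acids into reach of the cycle, was at 65.9, 67.5, 73.7 and 63.3 CPM in WT replicates 1 to 4. The KL-/- replicates were at 80.9, 98.6, 91.9 and 89.9 CPM. The lowest KL-/- mouse lay above the highest WT mouse. From 67.6 ± 4.45 to 90.3 ± 7.31 CPM (SD, n = 4) the log2 fold change was 0.42 (standard error 0.075, FDR = 0.00961, edgeR's quasi-likelihood test), and it passed in all 8 fits that left out 1 mouse.

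**Figure D3:**
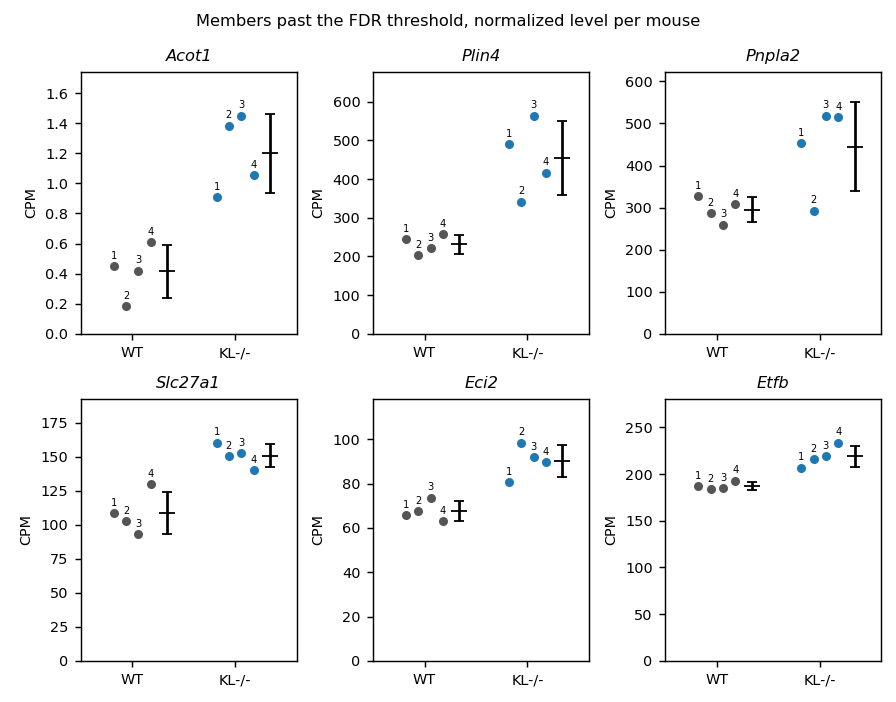
Normalized level in CPM (y axes, from 0) of the 6 genes with an FDR under 0.05, in each mouse, numbered by replicate, with the mean and SD of 4 mice beside the points. KL-/- mice lie above WT mice without overlap in 5 panels, and in *Pnpla2* KL-/- replicate 2 lies among the WT mice.

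The acyl-CoA dehydrogenases, which open each turn of the cycle for chains of a given length, had log2 fold changes of both signs. *Acadm* (medium chain) was at 0.23 on the log2 scale (standard error 0.081, FDR = 0.0917) and *Acads* (short chain) one of −0.18 (standard error 0.068, FDR = 0.105, edgeR's quasi-likelihood test). *Acads* was at 104, 113, 101 and 94.2 CPM in WT and 84.2, 93.8, 93.3 and 92.0 CPM in KL-/- muscle, so that the groups were apart by less than 1 CPM. DESeq2 called *Acadm* higher (FDR = 0.0445) and scaling by library totals called *Acads* lower (FDR = 0.0141, edgeR's quasi-likelihood test). *Acadl* (long chain) had 0.10 (FDR = 0.388) and *Acadvl* (very long chain) 0.067 (FDR = 0.564). *Acadvl* shares 44.6% of its exon bases with *Dvl2* on the other strand, and whether counting used strand is not given in the sources used here.

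Of the later steps, *Hadha* and *Hadhb*, the subunits of the trifunctional protein, had log2 fold changes of 0.12 (FDR = 0.220) and −0.062 (FDR = 0.613). *Hadh*, the dehydrogenase for shorter chains, had −0.040 (standard error 0.058) and *Acaa2*, the thiolase that closes the cycle, −0.038 (standard error 0.063). *Eci1*, the other isomerase, had 0.22 (FDR = 0.129), and *Decr1*, a reductase for polyunsaturated chains, 0.12 (FDR = 0.458). Without WT replicate 4, the highest WT mouse in both, *Acadm* (0.29, FDR = 0.0456) and *Eci1* (0.31, FDR = 0.0340, edgeR's quasi-likelihood test) passed.

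In electron transfer, which hands the electrons of the first step to the respiratory chain, 1 of 3 genes was higher, against 7.35% over all genes. *Etfb* (chr7:43444072-43457800), the beta subunit of the electron transfer flavoprotein, was at 187, 183, 185 and 193 CPM in WT replicates 1 to 4. In the KL-/- replicates it was at 207, 216, 219 and 234 CPM. The groups did not overlap and the difference was small against its level. From 187 ± 4.18 to 219 ± 11.2 CPM (SD, n = 4) the log2 fold change was 0.23 (standard error 0.055, FDR = 0.0282, edgeR's quasi-likelihood test). It passed in 3 of the 8 fits that left out 1 mouse, and the FDR was 0.0581, 0.0802 and 0.0741 without WT replicate 1, 2 or 3 and 0.0745 and 0.0773 without KL-/- replicate 3 or 4. *Etfb* shares 68.3% of its exon bases with *Gm45233* on the same strand, which leaves its counts uncertain. *Etfdh*, which passes the electrons to ubiquinone, had 0.15 (FDR = 0.174) and *Etfa*, the alpha subunit, 0.079 (FDR = 0.519).

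Among the thioesterases, which release free fatty acid from acyl-CoA, and the uncoupling proteins, 1 of 5 genes was higher, against 7.35% over all genes. *Acot1* (chr12:84009502-84017669), the cytosolic enzyme, was counted only 11, 4, 11 and 17 times in WT replicates 1 to 4 and 26, 29, 35 and 28 times in KL-/- replicates 1 to 4. These correspond to 0.449, 0.185, 0.419 and 0.610 CPM in WT and 0.907, 1.38, 1.45 and 1.06 CPM in KL-/- muscle. The lowest KL-/- mouse lay above the highest WT mouse at these few counts. The log2 fold change of 1.46 (standard error 0.32) was the largest of the 39 genes (FDR = 0.0205, edgeR's quasi-likelihood test), and the FDR was 0.0567 without WT replicate 3 and 0.0582 without KL-/- replicate 3.

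*Acot2*, the mitochondrial neighbour of *Acot1* on chromosome 12, was at 9.80, 13.6, 14.7 and 21.3 CPM in WT and 17.6, 26.5, 18.7 and 16.0 CPM in KL-/- replicates 1 to 4. Its groups overlapped widely (log2 fold change 0.40, standard error 0.23, FDR = 0.251, edgeR's quasi-likelihood test). Of the 2223 stretches of 50 bases in the *Acot1* transcript, 23.7% also occur in *Acot2*, so that reads from there cannot be assigned to either gene alone. *Acot13*, a smaller mitochondrial thioesterase, had 0.016 (standard error 0.078).

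*Ucp3* (chr7:100472991-100486432), the uncoupling protein of skeletal muscle that rises with fatty acid supply, was at 99.0, 163, 182 and 251 CPM in WT replicates 1 to 4. In KL-/- replicates 1 to 4 it was at 65.0, 281, 100.0 and 55.8 CPM. Again KL-/- replicate 2 was the highest of all mice, while KL-/- replicate 3 lay just above WT replicate 1 and the remaining 2 lay below every WT mouse. The log2 fold change was −0.47 (standard error 0.49, FDR = 0.535) and −1.23 (FDR = 0.0247, edgeR's quasi-likelihood test) without KL-/- replicate 2. *Ucp2*, its neighbour on chromosome 7, which is expressed in many tissues, had −0.13 (standard error 0.25, FDR = 0.749).

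Lipid droplet and lipolysis genes held 2 higher genes among 7, against 7.35% higher over all genes. A positive log2 fold change was found in 6 of the 7, against 47.6% of all genes, and of these *Mgll* turned to −0.094 with library totals, while *Plin5* and *Mgll* turned sign in fits that left out 1 mouse. *Plin4* (chr17:56100591-56109802, minus strand), a perilipin of adipocytes and muscle fibres, was at 244, 203, 221 and 259 CPM in WT replicates 1 to 4. The KL-/- replicates were at 491, 342, 564 and 417 CPM. Every KL-/- mouse was above every WT mouse, and KL-/- replicate 2 was the closest to them. From 232 ± 24.6 to 453 ± 95.6 CPM (SD, n = 4) the log2 fold change was 0.97, a 1.96-fold difference (standard error 0.15, FDR = 0.00583, edgeR's quasi-likelihood test). It passed in all 8 fits that left out 1 mouse, with values from 0.85 to 1.09.

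*Pnpla2* (chr7:141455188-141460743), the adipose triglyceride lipase ATGL that removes the first fatty acid from stored triglyceride, was at 327, 286, 259.7 and 308 CPM in WT replicates 1 to 4. Its level in KL-/- replicates 1 to 4 was 453, 293, 519 and 516 CPM. Only KL-/- replicate 2 lay within the WT range, and the other 3 lay well above it. With all mice the log2 fold change stood at 0.59 (standard error 0.16, FDR = 0.0425). It passed in 1 of the 8 fits that left out 1 mouse, the fit without KL-/- replicate 2 (0.76, FDR = 0.00172), and in the other 7 the FDR ran from 0.0619, without WT replicate 1, to 0.115, without KL-/- replicate 4.

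The later lipases did not pass. *Lipe*, the hormone-sensitive lipase that acts on diglyceride, had 0.25 on the log2 scale of change (standard error 0.10, FDR = 0.119). It shares 24.7% of its exon bases with *4732471J01Rik* on the other strand. *Mgll*, which cleaves the last fatty acid from monoglyceride, had 0.024 (standard error 0.18, FDR = 0.940, edgeR's quasi-likelihood test).

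The other perilipins differed in sign from one another. *Plin2*, which coats droplets in most cells, was at 27.7, 32.1, 36.1 and 27.8 CPM in WT and 22.0, 34.8, 20.0 and 19.7 CPM in KL-/- replicates 1 to 4. It was lower than in any WT mouse in 3 KL-/- mice and in the WT range in KL-/- replicate 2 (log2 fold change −0.36, FDR = 0.199, and −0.58, FDR = 0.00893, without that mouse). *Plin3*, a perilipin that moves between cytosol and droplet, was at 43.8, 45.5, 45.8 and 52.8 CPM in WT and 52.8, 34.8, 84.3 and 62.0 CPM in KL-/- replicates 1 to 4. Its log2 fold change was 0.32 (FDR = 0.337), and 0.51 (FDR = 0.0414, edgeR's quasi-likelihood test) without KL-/- replicate 2, which was the lowest of all mice. Without KL-/- replicate 3, the highest, it was 0.087 (FDR = 0.790). *Plin5*, which ties droplets to mitochondria in oxidative tissue, had 0.13 (FDR = 0.620). *Plin4*, *Plin5* and *Plin3* lie on chromosome 17 between positions 56100591 and 56290511, and of these *Plin4* alone passed with all mice.

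Many of these values were set apart by KL-/- replicate 2. It lay above the other 3 KL-/- mice in 18 of the 39 genes, below them in 10 and between them in 11. It was thus the highest or lowest KL-/- mouse in 71.8% of the members and in 62.9% of all genes. It was highest in 46.2% of the members and 32.8% of all genes, and lowest in 25.6% and 30.1%. WT replicate 4 was the highest or lowest WT mouse in as many members, 71.8%, and in 57.0% of all genes. The level of KL-/- replicate 2 relative to the mean of the other 3 was 8.88 in *Angptl4*, 3.81 in *Ucp3*, 2.78 in *Cpt1a*, 1.69 in *Plin2* and 1.52 in *Acot2*. In the other direction it was 0.525 in *Plin3*, 0.591 in *Pnpla2*, 0.633 in *Lpl* and 0.697 in *Plin4*. Of these, *Angptl4*, *Cpt1a* and *Plin2* lay below every WT mouse in the other 3 KL-/- mice, and *Pnpla2*, *Lpl* and *Plin4* above every WT mouse in them.

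With KL-/- replicate 2 left out, 14 of the 39 genes passed, 10 higher and 4 lower, by edgeR's quasi-likelihood test. That is 35.9% of the members, in a fit that called 22.0% of all genes, 12.1% higher and 9.83% lower. The 6 genes called with all mice were among them. The 8 further genes were *Lpl*, *Crat*, *Acacb* and *Plin3*, all higher, and *Cpt1a*, *Cpt2*, *Ucp3* and *Plin2*, all lower. With KL-/- replicate 3 left out, 3 members passed, *Plin4*, *Slc27a1* and *Eci2*, all higher, in a fit that called 6.07% of all genes, 3.25% higher and 2.82% lower. The same 3 members passed without WT replicate 3.

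**Figure D4:**
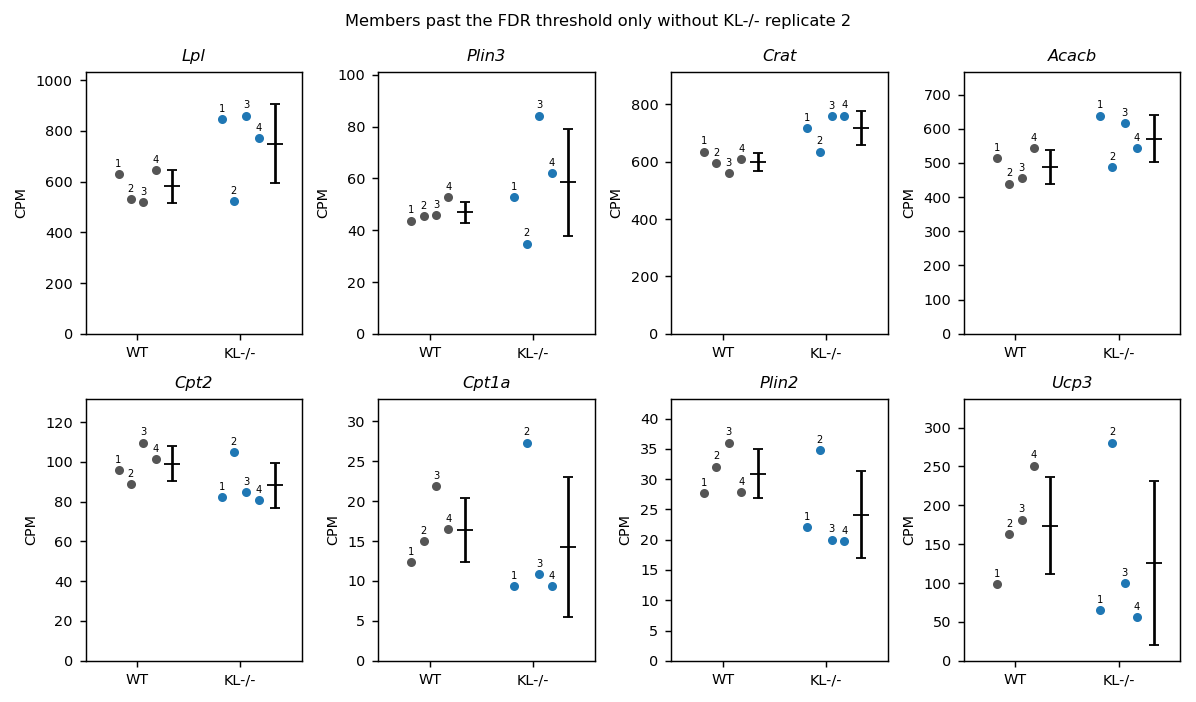
Normalized level in CPM (y axes, from 0) in each mouse, numbered by replicate, with mean and SD of 4 mice, for the 8 genes that passed an FDR of 0.05 once KL-/- replicate 2 was left out. In the upper row KL-/- replicate 2 is the lowest KL-/- mouse, and in the lower row it is the highest. The 8 genes were chosen by the fit without it, so this placement follows largely from the choice.

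Other transcripts moved with this mouse. Its 8 markers of oxidative fibres summed to 2753 CPM, against 8105 to 11002 CPM in the other KL-/- mice and 6036 to 10996 CPM in WT. Most of this sum was *Mb* and *Myh2*. *Mb*, the oxygen-binding myoglobin of oxidative fibres, was at 2391 CPM in KL-/- replicate 2, against 4558 to 5445 CPM in the other KL-/- mice. *Myl3* was also lowest in it among KL-/- mice (40.6 CPM, others 79.8 to 81.8 CPM). *Myl2* (3.05 CPM) and *Tnnc1* (3.20 CPM) were lowest in it by little, with 3.09 and 3.81 CPM in KL-/- replicate 4. Its *Tnnc1* was above every WT mouse, at most 2.91 CPM. *Myh7* (9.54 CPM, others 2.75 to 40.9 CPM), *Tnnt1* and *Tnni1* lay between the other KL-/- mice. The 8 fast fibre markers of KL-/- replicate 2 summed to 187980 CPM, against 138374 to 153190 CPM. The part of fibre makeup in the member values was not tested.

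The upstream sequences of *Cpt1a*, *Ucp3* and *Plin2* are shown with that of *Plin4*, the best separated of the higher genes with ample counts. *Cpt1a*, *Ucp3* and *Plin2* are only some of the 18 members in which KL-/- replicate 2 lay above the other 3 KL-/- mice. Each is the 250 bases before the RefSeq start site in GRCm38.p6, written 5′ to 3′ on the strand of the gene. They cover chr19:3323051-3323300 (*Cpt1a*, plus), chr7:100472741-100472990 (*Ucp3*, plus), chr4:86670060-86670309 (*Plin2*, minus) and chr17:56109783-56110032 (*Plin4*, minus). Capitals mark AGGTCA, the half-site of many nuclear receptors including the PPARs, or TGACCT, the same site read on the other strand.
Cpt1a: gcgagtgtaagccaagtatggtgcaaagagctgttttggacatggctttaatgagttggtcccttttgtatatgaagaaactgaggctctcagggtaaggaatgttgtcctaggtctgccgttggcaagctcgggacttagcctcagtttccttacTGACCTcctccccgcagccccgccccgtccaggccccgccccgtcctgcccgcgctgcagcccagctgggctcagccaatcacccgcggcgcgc
Ucp3: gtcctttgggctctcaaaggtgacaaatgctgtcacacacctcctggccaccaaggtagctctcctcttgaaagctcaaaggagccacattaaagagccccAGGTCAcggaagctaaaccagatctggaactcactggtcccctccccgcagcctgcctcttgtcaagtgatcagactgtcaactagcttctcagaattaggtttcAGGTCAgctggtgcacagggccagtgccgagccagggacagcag
Plin2: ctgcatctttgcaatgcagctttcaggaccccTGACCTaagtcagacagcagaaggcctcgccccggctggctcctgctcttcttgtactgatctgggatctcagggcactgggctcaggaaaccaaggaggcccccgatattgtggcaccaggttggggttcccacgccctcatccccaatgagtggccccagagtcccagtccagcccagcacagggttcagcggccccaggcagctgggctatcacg
Plin4: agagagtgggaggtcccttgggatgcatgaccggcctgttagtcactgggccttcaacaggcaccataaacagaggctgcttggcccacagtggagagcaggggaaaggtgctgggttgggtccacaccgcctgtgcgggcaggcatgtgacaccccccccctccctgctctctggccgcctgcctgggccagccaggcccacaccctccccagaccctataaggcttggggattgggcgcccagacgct

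The half-site began 94 bases before the start in *Cpt1a*, 149 and 44 bases before it in *Ucp3* and 218 bases before it in *Plin2*. The *Plin4* window did not hold these letters. On either strand AGGTCA occurred in 7 of 38 promoter windows of 32 members (18.4%) and in 14.0% of all 32851 windows of that length. The members were *Acadm*, *Acadvl*, *Cd36*, *Cpt1a*, *Plin2*, *Plin5* and *Ucp3*. KL-/- replicate 2 lay above the other KL-/- mice in *Cpt1a*, *Plin2*, *Plin5* and *Ucp3*. It lay between them in *Cd36* and below them in *Acadm* and *Acadvl*. It also lay above them in *Fabp3*, *Slc25a20*, *Cpt2*, *Mlycd*, *Acadl*, *Acads*, *Hadha*, *Hadhb*, *Eci2*, *Acot2* and *Ucp2*. The windows of these genes did not hold AGGTCA on either strand. A direct repeat of the half-site, with 1 base of any kind between the copies, was found in 0 of the 38 windows and in 0.0335% of all. The forkhead letters GTAAACA were in 5.26% of member windows (*Lipe*, *Mgll*) and 3.17% of all, and the E-box CACGTG in 7.89% (*Lipe*, *Mgll*, *Slc27a1*) and 6.02% of all. These are matches of letters and not measured binding.

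Among WT mice, replicate 4 had the highest level in 26 of the 39 genes (66.7%), against 29.6% of all genes. The 39 genes together took 0.971% of its counts and 0.808% to 0.852% in the other WT mice. In KL-/- muscle their share was 0.838% to 0.900%, so the genotypes overlapped in the total. WT replicate 4 also had the highest *Mb* of all 8 mice, 6408 CPM, and the highest WT sum of oxidative fibre markers.

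Levels of different genes were compared as CPM per kilobase of exon. *Fabp3* was the highest of the 39, at 749 in WT and 595 in KL-/- muscle, apart from the next gene in both genotypes. Below it followed *Acadvl* at 235 in WT, *Acadl* at 212, *Etfb* at 207 and *Acadm* at 181, whose ranges over mice ran into one another. In the order of WT levels, 32 of the 38 neighbouring pairs overlapped in their ranges and 6 did not, and in KL-/- muscle 35 overlapped and 3 did not.

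*Plin4*, at 40.3 per kilobase in WT and 78.8 in KL-/- muscle, was the most abundant of the 4 perilipin transcripts by this measure, above *Plin3* (21.8 and 27.1), *Plin2* (16.4 and 12.8) and *Plin5* (13.1 and 14.4). *Pnpla2* went from 109 to 164 per kilobase, while *Lipe* was at 6.95 in WT. *Acot1* was the lowest of the 39 in WT, at 0.267, below *Acot2* at 6.75 and *Acot13* at 126. *Cpt1b*, at 0.706, was below *Cpt1a* at 3.81, an order that is uncertain because of the bases that *Cpt1b* shares with *Gm44502*. The genes that rose thus spanned the range of levels, from *Acot1*, the lowest, to *Etfb*, among the highest.

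**Figure D5:**
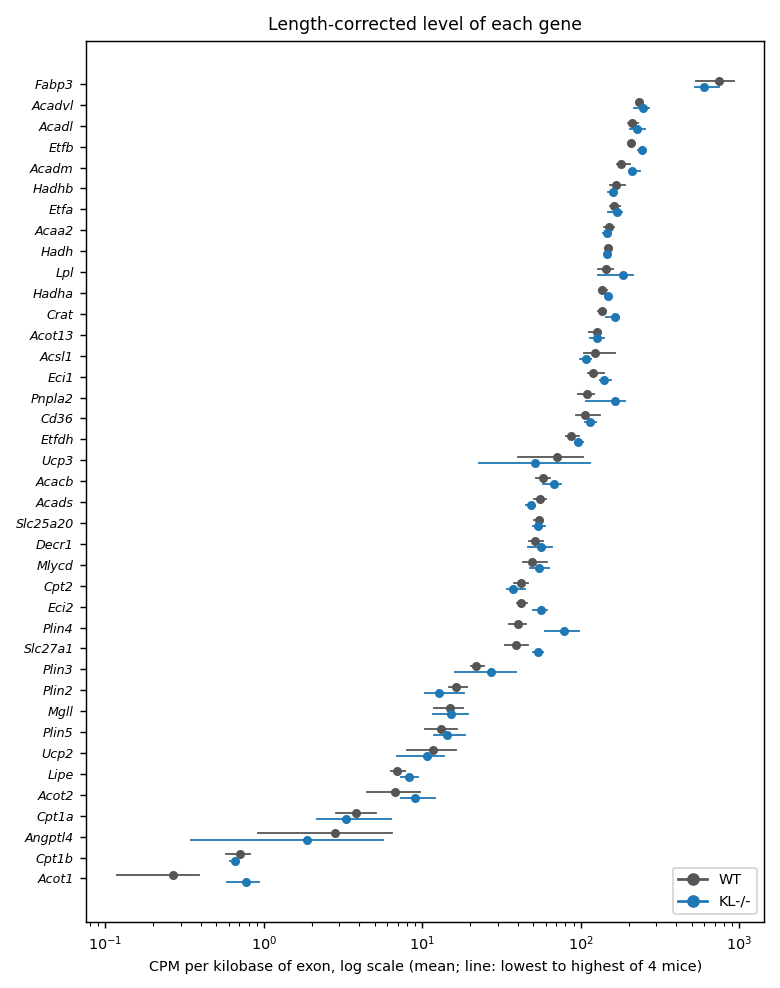
CPM per kilobase of exon on a log x axis for each of the 39 genes (y axis, ordered by WT level), with the mean of 4 mice as a point and the lowest to highest mouse as a line, for WT and KL-/-. Genotype lines lie apart for *Plin4*, *Eci2*, *Slc27a1*, *Etfb*, *Acot1* and *Acads*, and *Fabp3* stands above all others.

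Of 66 further genes of the same pathways, 62 were tested, and 4 were higher and 5 lower by edgeR's quasi-likelihood test. The share called, 14.5%, was near the 14.0% of all genes. For other uptake and transport genes 1 of 14 was higher and 0 were lower, with 3 lower at an unadjusted p under 0.05, and the likelihood ratio test and DESeq2 each called 1 lower and limma-voom 0. Of 31 other oxidation genes 2 were higher and 3 lower, and of 17 other droplet genes 1 was higher and 2 were lower.

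*Dgat2*, which makes triglyceride by the last step of its synthesis, was at 32.6 to 47.7 CPM in WT and 52.4 to 92.5 CPM in KL-/- muscle (log2 fold change 0.90, standard error 0.17, FDR = 0.0123). *Hilpda*, an inhibitor of ATGL, was at 3.84, 4.21, 4.58 and 4.20 CPM in WT and 1.88, 2.15, 2.07 and 2.37 CPM in KL-/- muscle (−0.99, standard error 0.13, FDR = 0.00334, edgeR's quasi-likelihood test). *Hilpda* was lower in all 4 KL-/- mice, replicate 2 included. *Hsd17b10*, a mitochondrial dehydrogenase of short and branched chains, was higher (0.48, FDR = 0.0140). *Dgat2*, *Hilpda* and *Hsd17b10* passed in all 8 fits that left out 1 mouse.

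The other genes that passed with all mice did not pass in every fit that left out 1 mouse. *Acadsb* (0.29, FDR = 0.0481), a dehydrogenase of branched chains, and *Fabp4* (0.27, FDR = 0.0300), the fatty acid binding protein of adipocytes and capillary endothelium, were higher. *Oxct1* (−0.41, FDR = 0.0264), which activates ketone bodies, *Acot7* (−0.37, FDR = 0.0353), a thioesterase, *Acad11* (−0.30, FDR = 0.0390), a dehydrogenase, and *Fitm2* (−0.27, FDR = 0.0432, edgeR's quasi-likelihood test), which shapes droplets, were lower. *Oxct1* passed in 4 of the 8 fits that left out 1 mouse, *Acadsb*, *Fabp4* and *Acad11* in 2, *Acot7* in 1 and *Fitm2* in 0. With all mice the genotypes did not overlap in *Fabp4*, *Oxct1*, *Acot7*, *Acad11* and *Fitm2*, and overlapped in *Acadsb*. *Abhd5*, the activator of ATGL, had −0.17 (FDR = 0.213) and *G0s2*, another ATGL inhibitor, 0.46 (FDR = 0.341).

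Transcripts of other cells that handle fatty acids are given beside these values. Of 10 adipocyte markers 8 were measured, without *Plin1* and *Lep*, and 1, *Fabp4*, was higher, against 7.35% of all genes. The sum is given over these 8 markers. Their sum was 204 to 233 CPM in WT and 231 to 310 CPM in KL-/- muscle, most of it *Fabp4*. *Adipoq*, the adipocyte hormone adiponectin, was at 1.22, 0.601, 1.07 and 3.23 CPM in WT and 9.90, 5.15, 0.746 and 1.32 CPM in KL-/- replicates 1 to 4. *Cidec*, a droplet protein of adipocytes, was at 0.416 to 2.51 CPM in WT and at 4.58, 0.414 and 1.32 CPM in KL-/- replicates 2 to 4, below KL-/- replicate 1. Among KL-/- mice both genes were highest in replicate 1, which had the second highest *Plin4*, and lowest in replicate 3, which had the highest. Among WT mice *Adipoq*, *Cidec* and *Plin4* were all highest in replicate 4 and lowest in replicate 2. Of the 8 markers 6 had a positive log2 fold change and 2 a negative one, with a median of 1.24. Over all genes 47.6% were positive. The sum over the 8 markers was 310, 297, 256 and 231 CPM in KL-/- replicates 1 to 4.

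Endothelial markers, of a cell type that also takes up fatty acids, had 1 lower gene and 0 higher among 10, with 0 higher also by the likelihood ratio test, DESeq2 and limma-voom and at an unadjusted p under 0.05. Among 10 leukocyte and macrophage markers 3 were lower, and among 7 fibroblast markers 3 were lower. Over all genes 6.67% were lower and 7.35% higher. Endothelial markers summed to 626 to 868 CPM in WT and 611 to 655 CPM in KL-/- muscle, and leukocyte and macrophage markers to 44.1 to 96.8 and 31.4 to 59.6 CPM. Fibroblast markers summed to 752 to 2901 CPM in WT, lowest in WT replicate 4, and to 381 to 1285 CPM in KL-/- muscle. Of 8 fast fibre markers 1 was higher and of 8 oxidative fibre markers 3 were higher. The fast fibre sum was 114370 to 135427 CPM in WT, below the KL-/- mice without overlap. The part of these cell types in the member values was not tested.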

How the data were processed

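RNA sequencing covered the TA of 8 mice. The deposited values are raw gene counts, which the authors made with featureCounts after STAR alignment to mm10 and removal of low-quality alignments. The annotation version and strand setting are not given in the sources used here. Labels name total RNA, and the methods mRNA. Replicates are separate samples by label.

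Counts of 12551 genes were tested in R 4.3.3 with edgeR 4.0.16 (filterByExpr, which removed 0 genes, TMM factors, genotype only, quasi-likelihood test, Benjamini-Hochberg over all genes). Standard errors come from the test statistic. DESeq2 1.42.0, limma-voom (limma 3.58.1), other scalings, filters, a replicate block and each mouse left out were alternatives. The tests were checked on simulated data. Exon overlaps use GENCODE M21 on GRCm38, and promoter windows RefSeq, which matched 32 of 39 members.

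The members and gene lists were chosen with earlier results of these data known. Values by mouse are given for members past the threshold and the 10 with the largest absolute log2 fold change. Members and list genes shown by mouse beyond these, and list genes not past the threshold, were chosen after their values were seen. Counts of 20860262 to 29273758 per library limit precision, and the floor covers counting error only. A gene of the further lists is not reported here, though counts over its list include it.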

Additional observations from a re-analysis of the deposited data

Results flagged for a closer look

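In each gene and genotype, the highest or lowest of the 4 mice was compared with the nearest of the other 3 as a share of the whole range (Dixon's test). Of 78 such groups 7 passed, where chance gives about 5%, or 3.9 groups.

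KL-/- replicate 2 was far above the other KL-/- mice in 3 genes. *Angptl4* was at 10.7 CPM in it, against 0.663 to 1.62 CPM in the others. *Cpt1a* was at 27.3 CPM, against 9.31 to 10.9 CPM. *Plin2* was at 34.8 CPM, against 19.7 to 22.0 CPM.

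KL-/- replicate 4 was above the other KL-/- mice in *Acadm*, at 484 CPM against 414 to 422 CPM, and in *Eci1*, at 170.2 CPM against 145 to 146 CPM. WT replicate 4 was above the other WT mice in *Eci1*, at 153 CPM against 120.5 to 123 CPM. WT replicate 3 was below the other WT mice in *Acot13*, at 77.5 CPM against 89.1 to 90.0 CPM.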

How the results depend on the processing

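Over the 10 other tests, scalings, filters and the block, the log2 fold changes of the 39 genes kept their direction and their side of the threshold in 373 cases, 7 went above an FDR of 0.05, 3 went below it, and 6 turned sign. Those 6 came with scaling by library totals, namely *Cd36* −0.017, *Acadvl* −0.051, *Acadl* −0.018, *Etfa* −0.039, *Acot13* −0.10 and *Mgll* −0.094, where the median of all genes was −0.13. *Slc27a1*, *Eci2* and *Plin4* passed in all 10.

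Requiring an absolute log2 fold change of 0.5 or more left 3 members, 2 further pathway genes and 812 of all genes. Library totals gave 15 further pathway genes, 2 higher and 13 lower, against 4 and 5 with TMM factors. The labels give both genotypes replicate numbers 1 to 4, but same-numbered mice did not deviate together (correlations from −0.37 to 0.18, over 0.1 in 1 pair), and 1 of 8 mice correlated best with its own number. With the number as a block, 3 members (*Slc27a1*, *Eci2* and *Plin4*), 3 further pathway genes and 671 of all genes passed.

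With 1 mouse left out, 3 to 14 members, 3 to 15 further pathway genes and 762 to 2755 of all genes passed. The highest counts came without KL-/- replicate 2 and the lowest without KL-/- replicate 3, for members also without WT replicate 3 and for further pathway genes also without WT replicate 4. The sign turned in some of these fits for *Angptl4* (−2.18 to 0.15), *Slc25a20* (−0.059 to 0.027), *Hadhb* (−0.097 to 0.012), *Acot13* (−0.036 to 0.073), *Ucp2* (−0.27 to 0.079), *Plin5* (−0.013 to 0.26) and *Mgll* (−0.11 to 0.13). The cause was not tested.

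At 4 to 35 counts per library *Acot1* is the least precise of the genes that rose, and it is left out by a minimum of 10 counts in every sample. No 2 libraries of a genotype were duplicates, with a chi-square per gene of 9.91 or more. The strand setting was not known, and values of genes that share exons are uncertain.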

Other observations

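Genes of ketone body use, named after their values were seen, were uneven among mice. *Oxct1* lay lower in every KL-/- mouse, at 337, 396, 374 and 408 CPM, than in any WT mouse, at 589, 466, 446 and 509.6 CPM. *Bdh1*, the dehydrogenase of beta-hydroxybutyrate, was at 19.2, 15.8, 18.9 and 62.6 CPM in WT and 9.45, 2.81, 26.0 and 10.6 CPM in KL-/- replicates 1 to 4 (log2 fold change −1.25, standard error 0.61, FDR = 0.189, edgeR's quasi-likelihood test). KL-/- replicate 2 thus had the lowest *Bdh1* of all 8 mice. *Acat1*, another gene of this route, had a change of the opposite sign and overlapped between genotypes. It was at 227 to 286 CPM in WT and 249 to 293 CPM in KL-/- muscle (log2 fold change 0.14, FDR = 0.318, edgeR's quasi-likelihood test).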
